A study of Mus musculus with 6 samples.

Results

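The genes described here code for the subunits of integrins and the chains of laminins, matched by gene symbol (Itga and Itgb followed by their subunit number or letter, and Lama, Lamb and Lamc followed by a number). These families were chosen with earlier results of these data known. The table of 18211 genes held 36 of them, 25 integrin subunits and 11 laminin chains. Preparations labelled as oligodendrocyte precursor cells (OPCs), the glia from which myelin-forming oligodendrocytes arise, were sequenced as 3 DISC1-Δ3 and 3 wildtype libraries. The comparison asks how the transcripts of these preparations differ after the loss of a stretch of Disc1. DISC1-Δ3 mice carried NG2-CreERTM and DISC1 exon3 fl/+, so that recombination removed exon 3 from 1 allele of Disc1 in cells that use the NG2 promoter, which besides OPCs include pericytes. Wildtype mice lacked CreERT. Both genotypes were C57BL/6, both received tamoxifen by gavage from postnatal day 4 to day 7, and from both the cells were taken at day 7 by panning the cerebral hemispheres on an antibody to PDGFRα, with RNA extracted straight after isolation. The labels do not say whether the libraries came from separate animals, so p-values measure the spread between these libraries.

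Integrins are receptors made of an α and a β subunit that span the cell membrane and tie the extracellular matrix, or ligands on neighbouring cells, to the cytoskeleton. Laminins are large secreted proteins, each built from an α, a β and a γ chain, and are the main network-forming glycoproteins of basement membranes, which in the brain surround the vessels and line the surface beneath the meninges. In oligodendrocyte lineage cells, integrins that contain the α6 and β1 subunits bind laminin and are known for their part in survival and process growth, and in leukocytes and microglia a separate set built on the β2 subunit serves adhesion and phagocytosis.

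The libraries held 13716619 to 16417219 reads assigned to genes, so that 1 read was worth 0.0609 to 0.0729 CPM, the count scaled to the library total. Levels are given as RPKM, which also divides by transcript length and so allows comparison between genes. Disc1 itself had 3.51, 3.34 and 3.81 RPKM in the wildtype libraries and 2.86, 2.44 and 2.85 in the DISC1-Δ3 libraries, and was lower in DISC1-Δ3 (log2 fold change −0.45 ± 0.0884 (SE), n = 3 libraries per genotype, edgeR adjusted p = 0.000528). Replicate 3 of DISC1-Δ3 stood apart from the other two of its genotype, since counts differed from theirs at 5.42 and 5.01 chi-square units per degree of freedom and the other pairs within a genotype at 1.81 to 2.99. The labelled cell type was checked against its markers. All 12 OPC markers were detected, with levels that summed to 572 to 594 RPKM (wildtype) and 745 to 774 RPKM (DISC1-Δ3), yet the 15 microglia markers summed to 16900 to 17200 and 11900 to 12300 RPKM. Mature oligodendrocyte markers summed to 2520 to 2560 (wildtype) and 2320 to 2350 RPKM (DISC1-Δ3), and astrocyte markers to 2090 to 2120 and 2000 to 2010. The preparations thus held far more transcript of microglia markers than of OPC markers, and also more of mature oligodendrocyte and astrocyte markers. The members are described as levels of the whole preparation. In such bulk samples, fewer cells of a type and less RNA per cell cannot be told apart.

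Of the 36 members, 29 reached an RPKM of 0.5 in at least 3 of the 6 libraries and were tested. In DISC1-Δ3, 9 were higher and 8 lower, where of all 13792 tested genes 20.4% were higher and 19.5% lower. Together 17 of the 29 (58.6%) passed the threshold of an adjusted p of 0.05, against 39.9% of all tested genes. Without DISC1-Δ3 replicate 3 it was 9 higher and 9 lower (62.1%, against 45.2% of all tested genes). The largest rise was that of Lamb3, the β3 laminin chain, followed by Lamb1, Itgax, Lama5 and Itga10, and the largest falls were those of Itgal, Itgb7, Itgb2 and Itgb5. These were the 5 higher and the 4 lower members whose log2 fold change reached 0.5 in either direction, as 7.48% of all tested genes did upwards and 6.15% downwards. The RPKM of the genotypes did not overlap for 19 of 29 members (65.5%), against 52.0% of all tested genes. Lamb3 and Itga10 are among the members counted as higher, as past the threshold and as not overlapping. Both passed the RPKM filter only through the DISC1-Δ3 libraries, so a difference was a condition of their being counted. For 31 of the 36 members every count was a whole number, and 5 (Itgb1, Itga4, Itga7, Itgax and Itgad) share a few reads with other genes.

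Among 9 tested laminin chains, 5 (55.6%) were higher and 0 lower in the edgeR test, against 20.4% and 19.5% of all tested genes. Their median log2 fold change was 0.45, and Lamb3 is 1 of the 5. At an unadjusted p under 0.05, 7 were higher and 0 lower, against 3401 and 3195 of all 13792 tested genes. Under the alternative scalings, filters and tests, DESeq2 and limma included, 4 to 7 were higher and 0 lower. The 4 came with an RPKM minimum of 1, where 2714 of 12757 genes were higher and 2619 lower. The 7 came with library totals, where 4126 of 13792 genes were higher and 1836 lower. Among 20 tested integrin subunits, 4 (20.0%) were higher and 8 (40.0%) lower, with a median of −0.18 (5 and 7 with library totals). Whether the families differ was not tested. The median over all tested genes was 0.01. With library totals as scaling in place of the trimmed mean of M values (TMM), 12 members were higher and 7 lower, so that 63.2% of their calls were upwards and not 52.9%, and over all genes 69.2% and not 51.1%. RPKM is scaled by library totals, while the fit used TMM factors of 0.970 to 0.973 in wildtype and 1.02 to 1.04 in DISC1-Δ3, and fitted changes therefore lie below the ratios of RPKM.

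**Figure D1:**
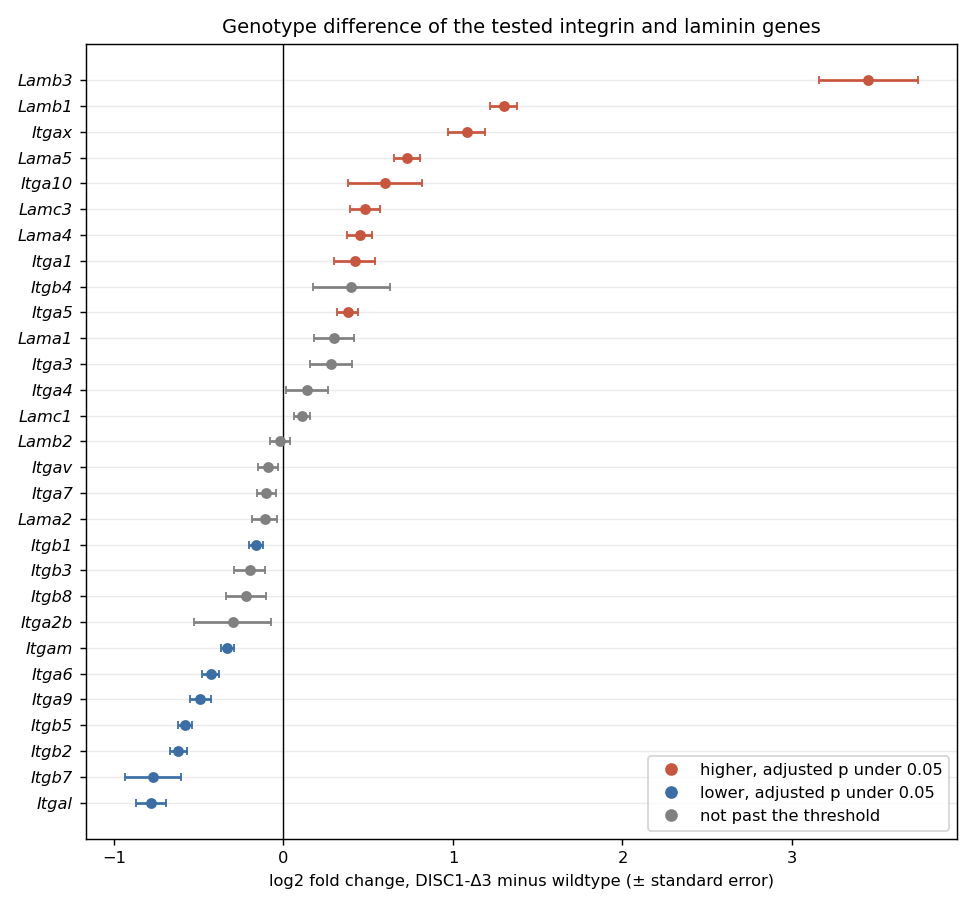
Fitted log2 fold change (DISC1-Δ3 minus wildtype, horizontal axis) of the 29 tested integrin and laminin genes, with bars of 1 standard error and n = 3 libraries per genotype. Red points (9 genes) were higher and blue points (8 genes) lower at an adjusted p under 0.05, and Lamb3 at 3.45 lies far to the right of Lamb1 at 1.30.

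Of the laminin chains, Lamb3 and Lamb1 rose most. Lamb3 codes for a chain of the laminin that anchors epithelia such as the epidermis. It was at 0.09, 0.13 and 0.06 RPKM in the wildtype libraries and at 1.22, 0.99 and 1.14 RPKM in the DISC1-Δ3 libraries, from 5, 8 and 4 reads against 67, 62 and 71. Every DISC1-Δ3 library lay well above every wildtype library, while the level stayed low beside that of the other β chains. The log2 fold change was 3.45 ± 0.292 (SE, edgeR adjusted p = 3.84e-08), and 0.95 on the log2(RPKM + 1) scale, which understates changes of low genes. Lamb3 passed the filter on RPKM only through the DISC1-Δ3 libraries, as did Itga10, so a difference was a condition of their being tested.

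Lamb1, the β1 chain of the laminins of early development and of many vessels, had 3.67, 4.13 and 3.65 RPKM in wildtype and 10.4, 8.98 and 9.96 in DISC1-Δ3. The genotypes did not overlap, and the DISC1-Δ3 libraries lay far above the wildtype ones. Its log2 fold change was 1.30 ± 0.0792 (SE, adjusted p = 5.33e-10). Lamb2, the β2 chain of mature vessel and synaptic basement membranes, was by far the most abundant β chain, at 39.3, 34.4 and 36.3 RPKM against 41.3, 37.5 and 36.4. The genotypes overlapped, and Lamb2 did not pass the test (log2 fold change −0.02 ± 0.0568 (SE), adjusted p = 0.856; with library totals the value was 0.07). The ratio of Lamb2 to Lamb1 RPKM was 10.7, 8.34 and 9.95 in the wildtype libraries and 3.95, 4.17 and 3.66 in the DISC1-Δ3 libraries. Lamb2 thus made up 90.3% ± 1.19 (SD, n = 3) of the summed RPKM of the 3 β chains in wildtype and 77.9% ± 1.18 in DISC1-Δ3, Lamb1 9.44% ± 1.11 and 19.9% ± 1.03, and Lamb3 0.232% ± 0.0951 and 2.26% ± 0.160.

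The promoter windows of Lamb3 and Lamb1 are printed because these chains had the largest changes and because Wnt target genes were higher in the same libraries (Lef1, log2 fold change 2.52 ± 0.129, adjusted p = 4.9e-11, and Axin2, 2.33 ± 0.0714, adjusted p = 4.09e-14). Each window runs from 250 bases before to 50 after an annotated transcript start, 5′ to 3′ on the gene's strand, from RefSeq on GRCm38.p6. The letters CTTTGA, the core bound by TCF/LEF factors, were searched on both strands. They would stand in capitals and are absent from these 3 windows. For Lamb3, 2 windows were found, which overlap, at chr1:193301744-193302043 and chr1:193301993-193302292, and the Lamb1 window is chr12:31265043-31265342, all on the plus strand. The RefSeq span of Lamb3 begins before both windows, at chr1:193294353, and no window at that position was searched.
Lamb3 first start: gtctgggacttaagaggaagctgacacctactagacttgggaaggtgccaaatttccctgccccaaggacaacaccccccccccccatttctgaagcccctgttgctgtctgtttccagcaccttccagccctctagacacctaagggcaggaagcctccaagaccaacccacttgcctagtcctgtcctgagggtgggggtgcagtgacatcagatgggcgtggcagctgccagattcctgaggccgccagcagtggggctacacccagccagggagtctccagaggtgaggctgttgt
Lamb3 second start: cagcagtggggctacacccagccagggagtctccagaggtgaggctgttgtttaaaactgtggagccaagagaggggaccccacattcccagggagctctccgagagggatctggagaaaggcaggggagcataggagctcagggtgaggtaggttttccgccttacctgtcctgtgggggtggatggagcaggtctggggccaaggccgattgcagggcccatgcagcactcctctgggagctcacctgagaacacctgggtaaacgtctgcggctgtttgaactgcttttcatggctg
Lamb1: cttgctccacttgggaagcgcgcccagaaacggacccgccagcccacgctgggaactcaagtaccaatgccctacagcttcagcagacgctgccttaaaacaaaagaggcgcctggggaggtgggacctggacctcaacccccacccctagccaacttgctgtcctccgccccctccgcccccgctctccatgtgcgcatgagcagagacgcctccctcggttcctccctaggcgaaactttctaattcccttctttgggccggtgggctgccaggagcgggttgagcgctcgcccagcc

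Of all 32851 promoter windows in the table, 16.0% held the letters on either strand, and of the 24 windows found for 22 of the 36 members 5 did (20.8%). By direction, 2 of 8 windows of members that were higher and 1 of 5 windows of members that were lower held them. Of the Wnt targets themselves, 1 of 4 windows of Lef1 held the letters, and the window of Axin2 did not. No match says only that these letters are not in this window.

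The α chains set which cells and receptors a laminin can bind. Lama5, the α5 chain of mature endothelial and epithelial basement membranes, had 2.94, 2.83 and 2.50 RPKM in wildtype and 5.11, 4.89 and 4.52 in DISC1-Δ3. All DISC1-Δ3 libraries were higher (log2 fold change 0.73 ± 0.0768 (SE), adjusted p = 5.47e-07). Lama4, the other α chain of endothelial laminins, rose from 4.96 ± 0.289 to 7.16 ± 0.341 RPKM (SD, n = 3; log2 fold change 0.45 ± 0.0723, adjusted p = 8.07e-05). Lama2, the α2 chain that astrocytes, pericytes and muscle deposit and whose loss causes a muscular dystrophy with white matter changes, had 3.50 ± 0.159 and 3.44 ± 0.215 RPKM and did not pass (log2 fold change −0.11, adjusted p = 0.233). Lama1, the α1 chain of the earliest basement membranes, was at 0.913 ± 0.0814 and 1.18 ± 0.0709 RPKM, without overlap between the genotypes, and missed the threshold (0.30, adjusted p = 0.0545). Among the α chains, Lama4 held the largest share of the summed RPKM in both genotypes (40.3% and 42.4%), and Lama5 took over the next place from Lama2. The share of Lama5 was 22.4% ± 1.39 (SD, n = 3) in wildtype and 28.7% ± 1.96 in DISC1-Δ3, and that of Lama2 was 28.4% ± 0.265 and 20.4% ± 1.04. This order depends on the division by length. In shares of counts, Lama2 led in wildtype (32.5%, with Lama5 at 29.9% and Lama4 at 28.3%). In DISC1-Δ3, Lama5 led (38.3%, with Lama4 at 29.7% and Lama2 at 23.1%).

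Of the γ chains, Lamc3, which is found on retinal and cortical surfaces, was higher in DISC1-Δ3 at 4.11 ± 0.147 against 2.78 ± 0.179 RPKM (log2 fold change 0.48 ± 0.0885, adjusted p = 2.87e-04). Lamc1, the γ chain of most laminins, was the more abundant at 17.5 ± 0.309 and 20.0 ± 0.717 RPKM. Its RPKM did not overlap between genotypes, but the fitted change of 0.11 ± 0.0476 did not pass (adjusted p = 0.0817), and it passed with library totals (0.19, adjusted p = 0.00269). The summed RPKM of the α chains was at most 12.8 in the wildtype libraries and at least 16.3 in the DISC1-Δ3 libraries, and that of the β chains was 38.7 to 43.1 and 47.4 to 53.0. Both sums were higher in every DISC1-Δ3 library.

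Lama3, the α3 chain that joins Lamb3 in the epithelial laminin, was too low to be tested. It had 12, 20 and 19 reads in wildtype and 25, 23 and 33 in DISC1-Δ3. All DISC1-Δ3 libraries had more reads, with RPKM that met at 0.23, and in a fit without the filter it did not pass (log2 fold change 0.58 ± 0.312, adjusted p = 0.163).

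**Figure D2:**
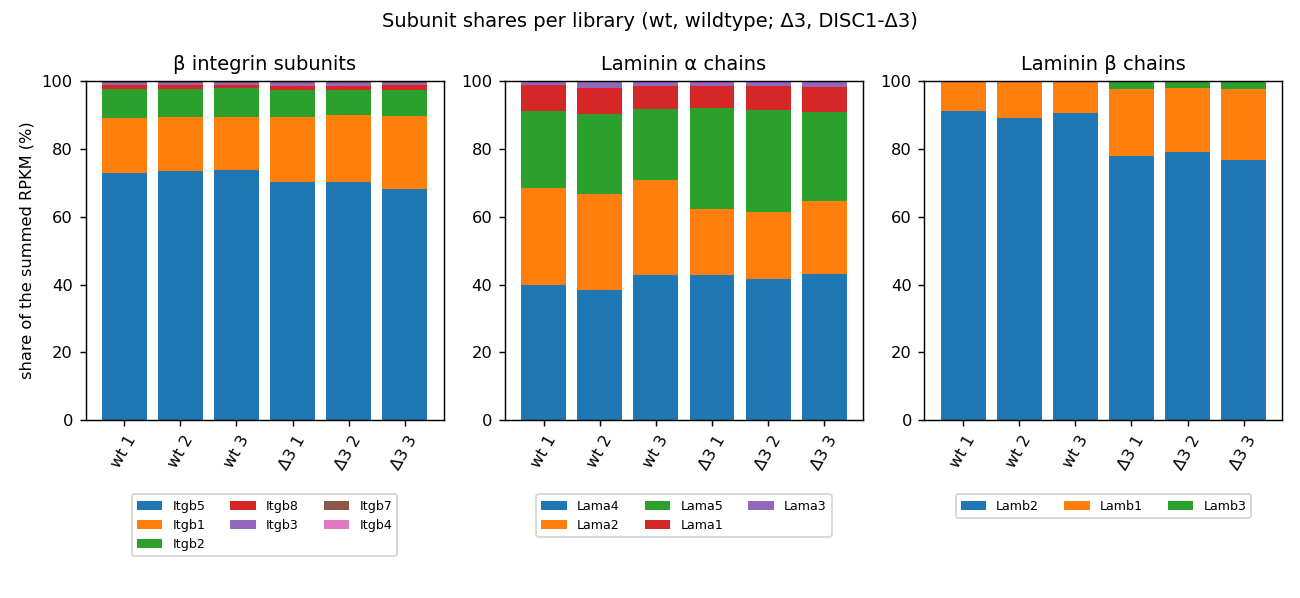
Share of each subunit in the summed RPKM of its class (vertical axis, percent) in each of the 6 libraries (wt, wildtype; Δ3, DISC1-Δ3), for the β integrin subunits and the laminin α and β chains. Lamb1 takes a larger part of the laminin β chains in the 3 DISC1-Δ3 libraries, and Itgb5 is the largest part of the β integrins throughout.

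The receptors follow by ligand. Of the α subunits that bind laminin with β1 or β4, Itga6 was the most abundant, with 27.1, 25.9 and 26.2 RPKM in wildtype and 21.1, 19.6 and 21.4 in DISC1-Δ3. All DISC1-Δ3 libraries lay below all wildtype libraries (log2 fold change −0.43 ± 0.0477 (SE), adjusted p = 1.16e-06). Itga7, a laminin receptor subunit of muscle, had 15.5 ± 0.246 and 15.3 ± 0.466 RPKM and did not pass (−0.10 ± 0.0567, adjusted p = 0.178). Itga3, which binds the epithelial and α5 laminins, had 1.81 ± 0.229 and 2.36 ± 0.0635 RPKM and missed the threshold (0.28, adjusted p = 0.0783). Itgb4, the subunit that joins α6 in epithelial hemidesmosomes, overlapped between genotypes at 0.547 ± 0.162 and 0.763 ± 0.170 RPKM (0.40 ± 0.227, adjusted p = 0.172). Itga6 thus fell in the preparations in which 5 laminin chains rose.

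Itgb1, the β subunit shared by the laminin, collagen and fibronectin receptors, had 82.1, 79.2 and 79.4 RPKM in wildtype and 74.2, 74.7 and 79.8 in DISC1-Δ3. Replicate 3 of DISC1-Δ3 lay within the wildtype range, so the genotypes overlapped. The fitted log2 fold change of −0.16 ± 0.0420 (SE) passed the threshold (adjusted p = 0.0069), and with library totals it did not (−0.07, adjusted p = 0.167). Its share of the summed RPKM of the 7 β subunits was 15.8% ± 0.210 (SD, n = 3) in wildtype and 20.2% ± 1.19 in DISC1-Δ3, while the share of Itgb5 was 73.4% ± 0.422 and 69.4% ± 1.17.

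The collagen-binding subunits were low. Itga10, known from cartilage, had 0.33, 0.35 and 0.35 RPKM in wildtype and 0.53, 0.58 and 0.53 in DISC1-Δ3. The genotypes did not overlap, but the call (log2 fold change 0.60 ± 0.220 (SE), adjusted p = 0.0394) was lost whichever library was left out (adjusted p = 0.0508 to 0.133) and with DESeq2 (adjusted p = 0.156). The call was also lost in edgeR without the RPKM filter (adjusted p = 0.0589) or with replicate number as a block (0.0564). By limma the adjusted p was 0.105 and 0.0896 with pseudocounts of 1 and 0.1. Itga1, a collagen receptor of smooth muscle and pericytes, was at 1.40 ± 0.127 and 1.98 ± 0.115 RPKM (0.42 ± 0.120, adjusted p = 0.0101). Without wildtype replicate 2 its adjusted p was 0.0543 and without DISC1-Δ3 replicate 1 it was 0.0503. Of the pair that was not tested, Itga11 had 12, 10 and 14 reads in wildtype and 14, 27 and 12 in DISC1-Δ3, overlapping, and Itga2 had at most 14 reads in any library. The promoter windows of both higher members held the letters CTTTGA, here in capitals, with the first letter of the match 187 bases before the start in Itga10 (−187; window chr3:96645334-96645633, plus strand) and 113 bases before it in Itga1 (−113; window chr13:115101915-115102214, minus strand).
Itga10: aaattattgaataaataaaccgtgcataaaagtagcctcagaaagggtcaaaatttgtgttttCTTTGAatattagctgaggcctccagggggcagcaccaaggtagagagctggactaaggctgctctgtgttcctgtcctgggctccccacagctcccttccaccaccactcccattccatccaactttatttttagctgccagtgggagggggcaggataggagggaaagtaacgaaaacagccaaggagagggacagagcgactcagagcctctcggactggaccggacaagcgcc
Itga1: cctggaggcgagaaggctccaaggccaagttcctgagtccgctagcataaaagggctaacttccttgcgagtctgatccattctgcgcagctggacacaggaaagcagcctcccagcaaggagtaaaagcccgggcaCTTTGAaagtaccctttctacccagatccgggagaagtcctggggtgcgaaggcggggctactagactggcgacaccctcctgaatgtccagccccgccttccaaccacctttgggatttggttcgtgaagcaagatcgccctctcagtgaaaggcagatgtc

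Among the α subunits that recognise the RGD sequence of fibronectin and vitronectin, Itga5, the fibronectin receptor subunit, rose from 10.8 ± 0.526 to 15.0 ± 0.431 RPKM (log2 fold change 0.38 ± 0.0629, adjusted p = 9.78e-05). Itgav, which pairs with several β subunits, had 12.7, 12.2 and 11.6 RPKM against 11.7, 11.3 and 13.1, overlapping, and did not pass (−0.09 ± 0.0587, adjusted p = 0.218), but without DISC1-Δ3 replicate 3 it did (−0.16, adjusted p = 0.0237). Itga2b, the platelet subunit, was near the filter at 0.677 ± 0.0737 and 0.587 ± 0.0473 RPKM (−0.30, adjusted p = 0.314). Itga8 was not tested, with 22, 35 and 29 reads in wildtype and 32, 50 and 38 in DISC1-Δ3. Its RPKM did not overlap between the genotypes, at 0.28, 0.38 and 0.31 against 0.40, 0.55 and 0.42, and in a fit without the filter it did not pass (0.39, adjusted p = 0.247). Of the α4 and α9 subunits, which bind VCAM1 and osteopontin, Itga9 fell from 10.1 ± 0.554 to 7.59 ± 0.367 RPKM (−0.49 ± 0.062, adjusted p = 4.99e-06), while Itga4 had 1.06 ± 0.0656 and 1.24 ± 0.179 RPKM (0.14, adjusted p = 0.411).

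Itgb5, which pairs with αv as a vitronectin receptor and in activating latent TGF-β, was the most abundant member in every library. It had 373, 368 and 374 RPKM in wildtype and 271, 264 and 253 in DISC1-Δ3. The genotypes were far apart, with a log2 fold change of −0.58 ± 0.0427 (SE, adjusted p = 6.03e-09). The other β partners of αv were much lower and did not pass, Itgb3 at 2.97 ± 0.165 and 2.74 ± 0.0513 RPKM (−0.20, adjusted p = 0.092) and Itgb8, which also activates latent TGF-β, at 5.24 ± 0.890 and 4.75 ± 0.391 RPKM (−0.22, adjusted p = 0.156).

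**Figure D3:**
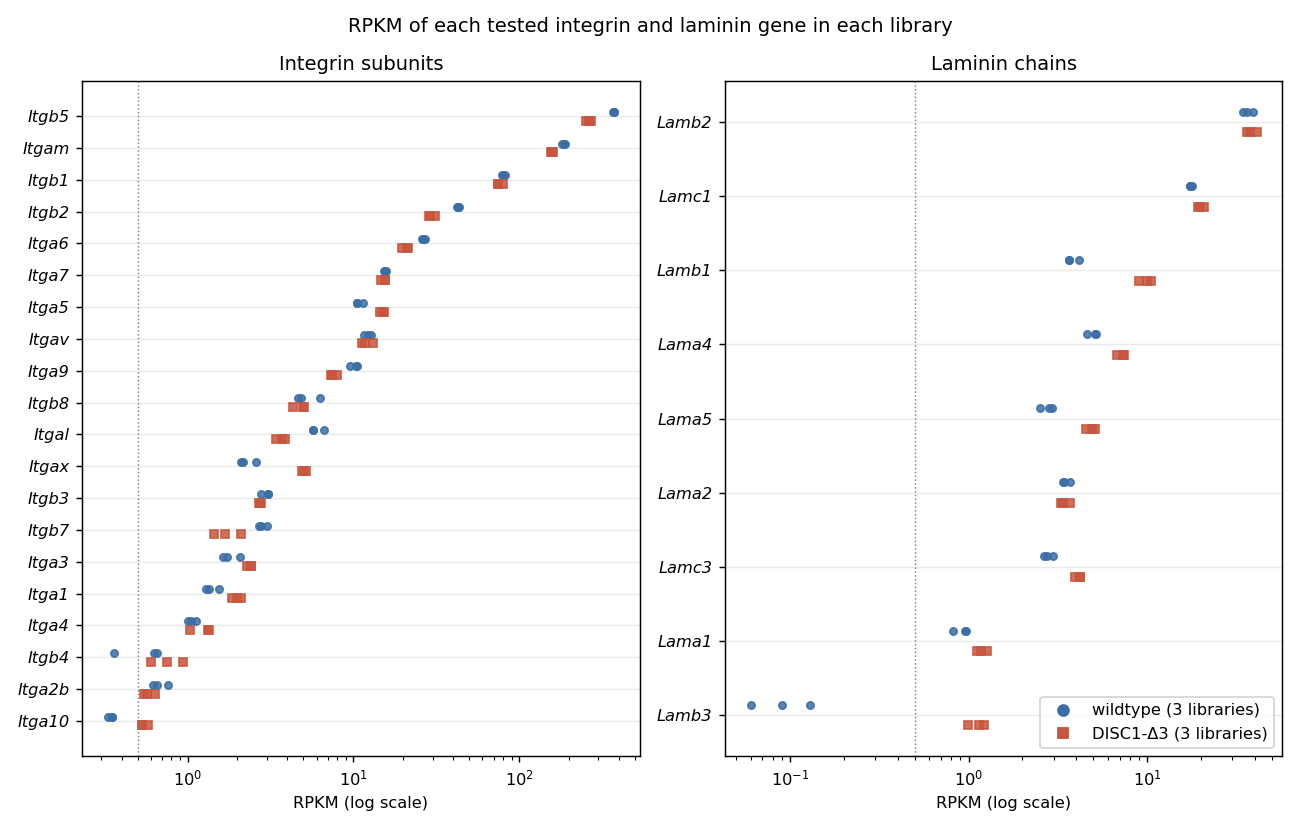
RPKM (horizontal axis, log scale) of the 29 tested integrin and laminin genes in each of the 3 wildtype (blue circles) and 3 DISC1-Δ3 libraries (red squares), ordered by mean level, with the dotted line at the filter of 0.5 RPKM. The DISC1-Δ3 libraries lie apart to the right for Lamb3, Lamb1, Lama5 and Itgax, and to the left for Itgb5, Itgb2 and Itgal.

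The leukocyte integrins share the β2 or β7 subunit. Of the 5 tested, 4 were lower in DISC1-Δ3 and 1, Itgax, was higher, where 19.5% of all tested genes were lower and 20.4% higher. Itgam, the αM subunit of complement receptor 3 and a standard surface label of microglia, had 187, 182 and 189 RPKM in wildtype and 160, 157 and 155 in DISC1-Δ3. Its genotypes did not overlap (log2 fold change −0.33 ± 0.0404 (SE), adjusted p = 4.11e-06), and it made up 67.5% ± 0.666 (SD, n = 3) of the summed RPKM of the 18 α subunits in wildtype and 64.3% ± 0.744 in DISC1-Δ3. Itgb2, its β partner, had 43.1, 42.3 and 42.5 RPKM against 30.9, 28.6 and 28.8. The wildtype libraries agreed closely and all lay above the DISC1-Δ3 libraries (−0.62 ± 0.0512, adjusted p = 2.70e-08).

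Itgal, the αL subunit of the leukocyte integrin that binds ICAMs, had 6.65, 5.71 and 5.69 RPKM in wildtype and 3.73, 3.88 and 3.42 in DISC1-Δ3. Again the genotypes were apart (−0.78 ± 0.0892 (SE), adjusted p = 1.58e-06). Itgb7, which pairs with α4 or αE in lymphocytes that home to mucosa, had 3.03, 2.76 and 2.71 RPKM against 1.69, 2.10 and 1.45. The DISC1-Δ3 libraries were all lower and spread more widely (−0.77 ± 0.163, adjusted p = 0.00106). Its partner Itgae was not tested, with 15, 11 and 21 reads in wildtype and 19, 24 and 15 in DISC1-Δ3, which overlapped, and Itgad had at most 5 reads in any library.

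Itgax, the αX subunit that marks dendritic cells and a subset of microglia in developing white matter, went the other way, with 2.60, 2.16 and 2.10 RPKM in wildtype and 5.19, 4.93 and 5.04 in DISC1-Δ3. The DISC1-Δ3 libraries were close together and all above the wildtype libraries (log2 fold change 1.08 ± 0.108 (SE), adjusted p = 3.25e-07). The ratio of Itgax to Itgam RPKM was 0.0139, 0.0118 and 0.0111 in the wildtype libraries and 0.0325, 0.0314 and 0.0325 in those of DISC1-Δ3. Spp1, which codes for the integrin ligand osteopontin, had 14.5, 13.3 and 14.3 RPKM against 46.0, 49.6 and 50.7. The rise of Spp1 was larger than that of Itgax (log2 fold change 1.72 ± 0.0719 (SE), adjusted p = 2.88e-12), and the difference between the 2 genes was not tested.

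Itgam and Itgax lie beside each other on chromosome 7 in the same orientation, at chr7:128062640-128118491 and chr7:128129526-128150657 on GRCm38.p6. Their promoter windows, chr7:128062390-128062689 and chr7:128129300-128129599, are printed because the neighbours moved in opposite directions. That of Itgam held CTTTGA once on each strand (on the minus strand it reads TCAAAG), both in capitals, the first match beginning 36 bases before the start (−36), and that of Itgax held none.
Itgam: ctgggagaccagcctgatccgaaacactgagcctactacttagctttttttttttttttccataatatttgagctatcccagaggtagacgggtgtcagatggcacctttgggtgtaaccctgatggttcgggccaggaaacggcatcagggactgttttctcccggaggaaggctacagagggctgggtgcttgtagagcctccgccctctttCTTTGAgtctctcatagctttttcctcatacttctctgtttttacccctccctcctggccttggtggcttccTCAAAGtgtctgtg
Itgax: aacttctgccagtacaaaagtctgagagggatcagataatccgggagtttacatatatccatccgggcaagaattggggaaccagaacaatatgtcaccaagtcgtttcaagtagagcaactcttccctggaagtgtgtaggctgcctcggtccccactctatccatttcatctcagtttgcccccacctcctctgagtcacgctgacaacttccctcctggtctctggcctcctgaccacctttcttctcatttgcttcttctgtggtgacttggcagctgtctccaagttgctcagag

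Microglia markers moved with the leukocyte integrins. All 15 were lower in DISC1-Δ3, where 19.5% of all tested genes were lower. Their median log2 fold change was −0.49, and none was at 0. The 3 most abundant, C1qa, C1qb and C1qc, which code for the first complement component, had means of 3310, 3100 and 3270 RPKM in wildtype and 2190, 2030 and 2270 in DISC1-Δ3. Per 100 RPKM of summed microglia markers, Itgb5 was at 2.18 to 2.21 in wildtype and 2.13 to 2.21 in DISC1-Δ3, and Itgb2 at 0.247 to 0.256 and 0.232 to 0.251, so that for both the genotypes overlapped. On the same scale Itgam was higher in DISC1-Δ3 (1.08 to 1.11 against 1.27 to 1.31), Itgax was higher (0.0122 to 0.0154 against 0.0400 to 0.0425) and Itgal lower (0.0331 to 0.0394 against 0.0288 to 0.0315). The C1q genes made up 52.9% to 57.2% of the sum. Against the geometric mean of the 15 markers, which weights them equally and was chosen after the data were seen, Itgam and Itgax were again higher, whereas Itgb2 (0.0842 to 0.0859 against 0.0768 to 0.0824) and Itgb5 (0.733 to 0.743 against 0.674 to 0.724) were lower without overlap. The part of microglial content in the changes of these integrins was not tested.

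Markers of other blood cells that carry leukocyte integrins were present at unequal levels. Of 9 markers of T cells, natural killer cells and neutrophils, 4 passed the filter. Of these, 2, S100a9 and S100a8, were lower (log2 fold change −0.43 and −0.63), where 19.5% of all tested genes were lower. The list had summed levels of 133 to 152 RPKM in wildtype and 98.8 to 110 in DISC1-Δ3. S100a9 had means of 88.3 and 69.1 RPKM and S100a8 of 45.2 and 30.6, levels near or above that of Itgb2, and Gzma, at 4.54 and 4.08 RPKM, did not pass (−0.24, adjusted p = 0.365). Nkg7, at 1.59 and 1.24 RPKM, did not pass either (−0.44, adjusted p = 0.372). The T cell markers Cd3d, Cd3e and Cd8a were at most 0.67 RPKM in any library, and Ly6g was at 0 in DISC1-Δ3 replicates 1 and 2. Of 7 markers of border macrophages, Mrc1 (log2 fold change −0.32) and F13a1 (−0.19) were lower and none passed upwards in the edgeR test (1 was higher at an unadjusted p under 0.05, 2 by limma and 0 by DESeq2). The other 5, among them Pf4, the most abundant (0.14), did not pass. The list had a median of 0.14 and sums of 76.3 to 79.3 and 77.7 to 81.3 RPKM. Their part in the changes of Itgal, Itgb7 and Itgb2 was not tested.

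Of the cells that deposit or border basement membranes, pericytes, smooth muscle and endothelium had markers that rose beside the laminin chains. Fibroblast markers did not pass by edgeR, and 7 of 10 astrocyte markers were lower. Of all tested genes, 20.4% were higher and 19.5% lower. Of 10 pericyte and smooth muscle markers 9 were higher and 0 lower (median log2 fold change 0.47, sums of 159 to 168 RPKM in wildtype and 228 to 237 in DISC1-Δ3), led in level by Vtn (0.33), Rgs5 (0.50) and Acta2 (0.65). Of 10 endothelial markers 6 were higher and 0 lower (median 0.22, sums of 167 to 177 and 222 to 224), led by Cldn5 (0.39), Ly6c1 (0.32) and Esam (0.21). Of 7 fibroblast markers 0 passed by edgeR or DESeq2, 1 was higher at an unadjusted p under 0.05 and 2 were higher by limma (median 0.09, sums of 35.9 to 40.0 and 40.7 to 45.8; Col1a2 0.09, Col3a1 0.24 and Pdgfrl −0.05). None of these markers was at 0. Lama4 and Lama5 thus moved within the range of the pericyte list. Lamb1 and Lamb3 rose by more than any pericyte, endothelial or fibroblast marker (the largest was Higd1b, 1.02). The part of these cells in the laminin changes was not tested.

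Of 6 epithelial markers 4 were tested and 3 were higher, where 20.4% of all tested genes were higher. The 3 were Cdh1 (E-cadherin, log2 fold change 5.43), Krt8 (3.40) and Krt18 (2.78). The list summed to 5.26 to 5.85 RPKM (wildtype) and 34.5 to 36.4 RPKM (DISC1-Δ3). Epcam did not pass (0.09, adjusted p = 0.754), and the keratins of stratified epithelia were at or near 0, Krt5 at 0.03 RPKM in each DISC1-Δ3 library and 0 in wildtype, and Krt14 at 0 in 5 of 6 libraries. Cdh1, like Lamb3, passed the filter only through the DISC1-Δ3 libraries (0.12, 0.09 and 0.04 RPKM in wildtype, 3.45, 3.73 and 4.08 in DISC1-Δ3), so a difference was a condition of its being tested. Itgb4 and Itga3 of the epithelial laminin receptors did not pass the test. The part of epithelial cells in the change of Lamb3 was not tested.

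OPC markers rose as well, 8 of 12 higher and 1 lower with a median log2 fold change of 0.47. Of all tested genes, 20.4% were higher and 19.5% lower. The 3 most abundant were Olig1 (0.31), Ptprz1 (−0.35, the exception) and Gpr17 (0.68), and Pdgfra, the target of the panning antibody, went from 17.5 to 25.9 RPKM (0.48). Of 10 neuron markers 9 were higher (median 0.47, sums of 373 in every wildtype library and 452 to 473 in DISC1-Δ3, with Tubb3 0.19, Stmn2 0.13 and Slc17a7 0.46). Slc17a6, 1 of the 9, had 0.43, 0.43 and 0.25 RPKM in wildtype and 1.06, 0.98 and 0.72 in DISC1-Δ3. It passed the filter only through the DISC1-Δ3 libraries, so a difference was a condition of its being tested. Of 9 mature oligodendrocyte markers 7 were lower (median −0.47, sums of 2520 to 2560 and 2320 to 2350; Mbp −0.16 and Cnp −0.20). Of 10 astrocyte markers 7 were lower and 1, Gfap (0.34), higher (median −0.24, sums of 2090 to 2120 and 2000 to 2010; Aldoc −0.17 and Slc1a3 −0.06, which did not pass). Itga6 and Itga9 fell beside the lists of astrocytes, mature oligodendrocytes and microglia, and the part of each list was not tested.

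**Figure D4:**
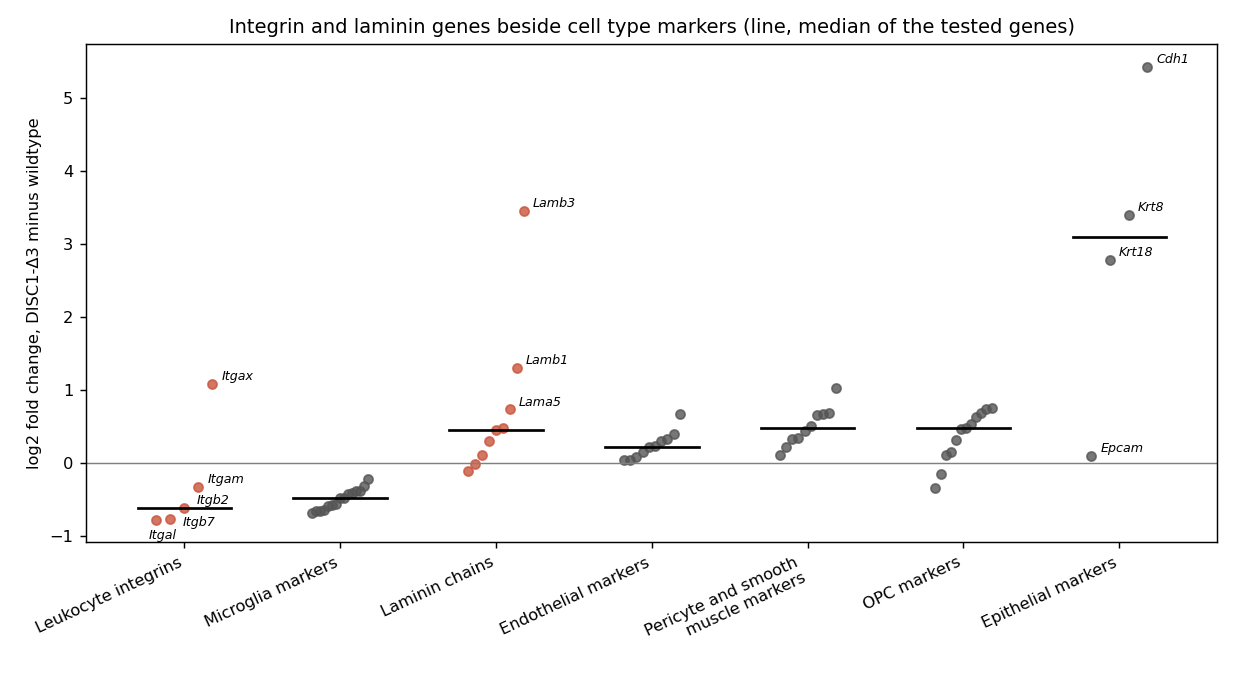
Fitted log2 fold change (DISC1-Δ3 minus wildtype, vertical axis) of the tested leukocyte integrins and laminin chains (red) beside marker genes of 5 cell types (grey), each point 1 gene and each line the median. Itgam and Itgb2 lie within the range of the microglia markers, Itgal and Itgb7 just under it and Itgax above it, and Lamb1 and Lamb3 lie above every endothelial and pericyte marker.

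Inside the cell, integrins are switched on by talins and kindlins and signal through adaptors and kinases. Of 30 such genes 29 were tested, 4 (13.8%) were higher and 10 (34.5%) lower, where of all tested genes 20.4% were higher and 19.5% lower. Their median log2 fold change was −0.07 (0.01 with library totals). The largest falls were those of the leukocyte isoforms, Fermt3 (kindlin of blood cells; 124 ± 4.77 to 85.9 ± 2.82 RPKM, log2 fold change −0.61 ± 0.0464, adjusted p = 9.24e-09) and Parvg (the parvin of blood cells; −0.55 ± 0.047, adjusted p = 4.17e-08), followed by the kinase Ptk2b (−0.46) and the adaptor Pxn (−0.41). Those that were higher were the docking protein Bcar1 (0.50 ± 0.0684, adjusted p = 1.22e-05), Lims2 (0.38), the focal adhesion kinase Ptk2 (0.28) and Src (0.18). The widely expressed kindlin Fermt2 (0.04, adjusted p = 0.568) and the integrin-linked kinase Ilk (−0.07, adjusted p = 0.217) did not pass.

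Of 28 listed integrin ligands other than laminins, 24 were tested, 10 (41.7%) were higher and 7 (29.2%) lower, with a median of 0.01. The shares over all tested genes were 20.4% and 19.5%. Ltbp1, which stores latent TGF-β in the matrix where αv integrins release it, rose from 2.34 ± 0.230 to 14.2 ± 0.490 RPKM (2.50 ± 0.0811, adjusted p = 9.74e-14), the largest rise of the list, ahead of Spp1 (1.72), Nov (0.86) and Cyr61 (0.64). The largest falls were those of Thbs4 (−0.62), Nrros, which holds latent TGF-β on microglia (−0.61), Tgfb1 (222 ± 6.01 to 164 ± 11.5 RPKM; −0.51 ± 0.0524, adjusted p = 4.2e-07) and Npnt, the ligand of the α8 subunit (−0.43). The vitronectin gene Vtn, also on the pericyte list, rose (0.33) where Itgb5, part of its receptor, fell.

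Of 23 basement membrane partners and other laminin receptors, all tested, 9 (39.1%) were higher and 5 (21.7%) lower, with a median of 0.09. The shares over all tested genes were 20.4% and 19.5%. Sdc1, a heparan sulphate proteoglycan that binds laminin (2.82 ± 0.122 to 7.55 ± 0.0557 RPKM, 1.36 ± 0.0984, adjusted p = 5.09e-09), and Col18a1, a collagen of vessel basement membranes (4.67 ± 0.301 to 11.6 ± 0.865 RPKM, 1.22 ± 0.0776, adjusted p = 8.86e-10), rose most, followed by Ntn1 (0.51) and Lgals1 (0.39). The lower genes were led by Nid2, a nidogen that links laminin to collagen IV (−0.38 ± 0.0526, adjusted p = 1.5e-05), then Sdc3 (−0.19), Rpsa (−0.17, a gene with many processed pseudogenes, so that its counts are uncertain) and Dag1, the dystroglycan receptor of laminin (−0.13). With library totals 2 and not 5 of this list were lower.

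The spread between replicates was small. Over the tested members the median coefficient of variation of RPKM was 6.08% in wildtype and 5.28% in DISC1-Δ3, against 5.90% and 6.88% over all tested genes. It ran from 0.83% (Itgb5) to 37.6% (Lamb3) in wildtype and from 1.45% (Itgam) to 22.3% (Itgb4) in DISC1-Δ3, and the highest values belonged to members of few reads.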

How the data were processed

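The authors deposited, for 18211 genes with gene IDs and symbols, expected counts per library, in which reads matching several genes are divided (90.2% of values above 0 are whole). The authors made the deposited RPKM by dividing counts by transcript length and library total. Reads were single-end from poly(A) RNA. The submitters' processing notes name Bowtie2 2.2.5 and mm10, and the paper names DESeq2; the counter and annotation are not given in the sources used here. The 4 columns of group averages were not used.

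Expected counts were rounded and tested with edgeR 4.0.16 in R 4.3.3 (quasi-likelihood, two-sided, TMM, genotype as the only term) on the 13792 genes whose RPKM reached 0.5 in 3 or more of the 6 libraries, with Benjamini-Hochberg adjustment over all of them and a threshold of 0.05. The biological coefficient of variation was 5.44%. The fit was tested on simulated data.

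Alternative settings were an RPKM minimum of 1 or none, library totals, median-of-ratios scaling, DESeq2 1.42.0, limma 3.58.1 on log2(RPKM + 1) and log2(RPKM + 0.1), the replicate number as a block, each library left out, and shares from counts. Values per library are given for members past the threshold whose log2 fold change reached 0.5 in either direction, for the 6 members of highest RPKM, and for untested members with at least 10 reads in every library of a genotype. In pathway lists up to 4 called genes per direction are named and in marker lists the 3 most abundant and exceptions; other named list genes were picked after their values were seen. Members and lists were chosen with earlier results of these data known. Gene IDs of all 36 members matched RefSeq on GRCm38.p6, the assembly behind mm10, and promoter windows were found for 22. A member and a marker gene that the naming rule covers are not reported here.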

Additional observations from a re-analysis of the deposited data

How the results depend on the processing

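Over all alternatives 7 to 12 members were higher and 7 to 9 lower, with laminin chains never lower, and 21 of the 29 members kept their direction and side of the threshold throughout. The exceptions were Itga10, Itga1 and Itgb1, whose calls were lost as given above (Itgb1 also by limma, −0.07), Itga3 (0.37 with library totals), Lama1 (0.38), Lamc1 (0.19) and Itgav, which gained one, and Lamb2, which turned to 0.07 with library totals, 0.06 and 0.07 by limma with pseudocounts of 1 and 0.1, and −0.09 to 0.03 with a library left out (0.03 without wildtype replicate 1, 0.02 when DISC1-Δ3 replicate 3 is dropped). Over all genes, 1774 and 1763 were lower by limma with those pseudocounts and not 2691, and leaving out 1 library gave 2149 to 3314. With library totals and by limma with either pseudocount, the adaptors had 8, 7 and 7 higher genes and not 4 (2 to 4 with a library left out; 2 without wildtype replicate 2) and a median of 0.01 each time, the basement membrane list had 2, 2 and 1 lower and not 5 (3 to 6 with a library left out, 3 without wildtype replicates 1 or 2), border macrophages had 2 higher each and 1 lower each (1 lower by DESeq2 too), and fibroblasts had 2 higher each. Without the filter and with the block 1 fibroblast marker was higher. With a library left out, the lists gave 1 to 2 OPC markers lower, 0 to 1 border macrophage markers higher and 1 to 2 lower, 0 to 2 fibroblast markers higher, a fibroblast median of −0.02 to 0.12 (−0.02 without DISC1-Δ3 replicate 1), and 0 to 1 neuron markers lower. The cause of these shifts was not tested. From counts without division by length, the share of Lamc1 fell by 3.00 percentage points and not 3.66. Same-numbered deviations correlated at 0.0444, 0.0263 and −0.0288, and differently numbered ones at −0.0526 to 0.0273. Values this small cannot settle whether same-numbered libraries were handled together. With the replicate block 8 members were higher and 8 lower, and 2774 and 2655 of all genes. Depth limits the 7 untested members, with 2 to 50 reads per library.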
